A study of Homo sapiens with 32 samples.

Results

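The comparison described here sets the m6A peaks of CFL1 knockout PANC-1 cells against those of control PANC-1 cells. Its members are all peaks on chromosomes 1 to 22 in the control and the CFL1 knockout lists, 286247 of the 424904 peaks in the 3 peak lists of the series. PANC-1 is an established human pancreatic ductal adenocarcinoma line. The labels give the genotypes as Control and KO CFL1, each with 2 antibody samples and 2 input samples, and name no treatment beyond the antibody step. Fragmented total RNA was incubated with an antibody against m6A, and a part of the fragments was sequenced as input. The series title concerns m6A that CFL1 induces on super enhancer RNA, and the comparison asks where m6A peaks lie without CFL1.

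N6-methyladenosine is a methyl mark that the METTL3 and METTL14 complex places on RNA as it is transcribed, mostly at adenosines within DRACH-type sequences and often near stop codons. In antibody-based mapping the bound fragments pile up around the modified base, so a peak is as wide as the fragments or as a cluster of modified bases, and its summit marks the highest pile. CFL1 encodes cofilin 1, which binds and severs actin filaments and is also needed for the transport of actin into the nucleus.

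Each list joined the peaks of 2 libraries called separately, which are named here by their numbers as control 1 and 2 and knockout 3 and 5. They held 75301, 77104, 70118 and 63724 peaks on chromosomes 1 to 22, with a median width of 332, 340, 332 and 340 bp. As listed, the knockout libraries held fewer peaks, though their peak numbers ran higher, as given below. The widths of the groups overlapped. The peak lists carry no RNA levels, so neither the loss of CFL1 nor the identity of the line could be checked in them. The sources used here do not give how the knockout was made, whether it was 1 clone, or what the letters si in the names of its libraries stand for. Separate cultures are not named in the labels, and differences between the 2 libraries of a group may be technical only. No batch is given, and a batch that followed the groups could not be told apart from them.

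Peaks of the 4 libraries that overlapped by at least 1 bp were joined into 147095 sites. A site called in both control libraries and in no knockout library is called lost. A site called in both knockout libraries and in no control library is called gained, and a site called in all 4 libraries is called kept. These words describe the lists. A list holds no transcript level, so fewer methylated molecules, fewer molecules of the transcript and fewer cells that make it cannot be told apart.

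Sites followed the groups. The 2 control libraries alone shared 25355 sites and the 2 knockout libraries alone 14594, while 20541 sites were in all 4 libraries. In contrast, the 4 possible pairs of 1 control and 1 knockout library shared 685 to 1176 sites that no other library held. Of the sites found in exactly 2 libraries, 91.7% were of 1 group. Another 50.6% of all sites were called in 1 library only.

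**Figure D1:**
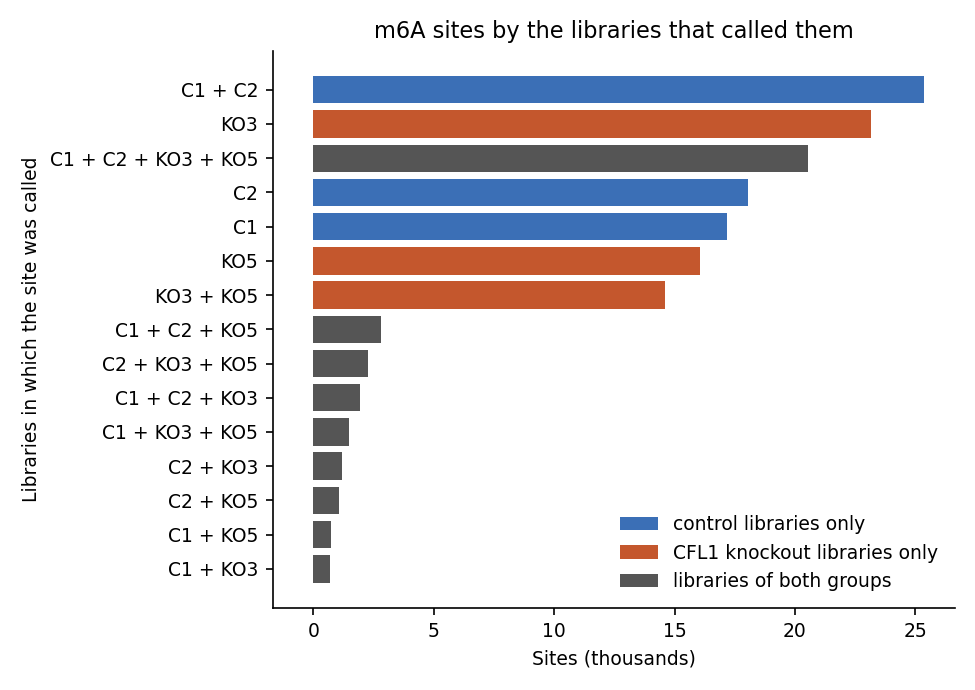
Number of sites (axis in units of 1000) called in each combination of the 4 libraries (C, control; KO, CFL1 knockout), with bars coloured by group. The bars for both control libraries (25355) and both knockout libraries (14594) were far longer than those for any mixed pair (685 to 1176).

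Of the 50638 sites in both control libraries, 25355 were lost (50.1%, exact 95% binomial interval 49.6% to 50.5%) and 40.6% were kept. Of the 38879 sites in both knockout libraries, 14594 were gained (37.5%, 37.1% to 38.0%). Intervals cover counting error only, and neighbouring sites are not independent. Without knockout 5 a gained site needed 1 knockout library only and the gained share was 57.9%.

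Lost and gained sites were narrow and of low rank beside kept ones. Peaks at lost sites had a median width of 303 bp in control 1 and 310 bp in control 2. At gained sites the medians were 320 bp in knockout 3 and 302 bp in knockout 5. Peaks at kept sites were wider in every library, at 582, 618, 547 and 577 bp in the order control 1, control 2, knockout 3 and knockout 5. The fold enrichment, −log10 p and −log10 q of a peak are the authors' own values and serve here only to describe, rank or filter peaks within a list. In control 1 the median −log10 q was 7.60 at lost and 27.4 at kept sites, and in control 2 it was 7.29 and 32.3. In knockout 3 it was 10.8 at gained and 29.5 at kept sites, and in knockout 5 it was 10.1 and 40.3. With peaks of −log10 q of at least 10 alone, 35.6% of control sites were lost, against 50.1% with all, and 36.8% of knockout sites were gained, against 37.5% with all. The lost share thus exceeded the gained share with all peaks and did not among peaks of this strength, where lost sites made up 28.4% and gained sites 28.6% of lost, gained and kept sites.

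The numbers in the peak names bear on these absences. They rose along every chromosome but skipped values. The share skipped was 22.5% in control 1, 28.6% in control 2, 50.2% in knockout 3 and 42.0% in knockout 5. More numbers were skipped in both knockout libraries than in either control library. The highest number was 100151 in control 1, 111357 in control 2, 146176 in knockout 3 and 114320 in knockout 5. Both knockout libraries thus reached higher numbers than either control library, but had fewer listed peaks. Their lower counts therefore hold for the lists and not for the numbering. All listed peaks had a −log10 p of at least 4.00. A skipped number may stand for a peak that was called and then left out of the list, which was not tested, and the sources used here name no criterion for it. For 8111 of the 25355 lost sites (31.99%) no number was skipped between the flanking peaks in either knockout library, so the numbering leaves no place for such a call there. The same held for 4521 of the 14594 gained sites (31.0%) in the control libraries. Counting these sites only, 16.0% of control sites were lost and 11.6% of knockout sites gained. At the other lost and gained sites the lists do not show whether there had been a call.

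Lost and gained sites stood in runs along the chromosomes. In the order of lost, gained and kept sites, with all other sites passed over, a lost site was followed by another lost site in 63.2% of cases, while lost sites made up 41.9% of the sites in that order. Gained sites were followed by a gained site in 40.9% of cases and made up 24.1%. Kept sites were followed by a kept site in 42.6% and made up 34.0%. A lost site was followed by a gained one in 12.2% of cases only. For both lost and gained sites, the share followed by its own kind lay above the chromosome's own share on 22 of 22 chromosomes.

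The likeness of neighbours faded with distance for lost and gained sites. Other sites were again passed over. Among lost, gained and kept sites within 1 kb of a lost site, measured between centres toward higher coordinates, 85.6% were lost. The share was 73.8% at 1 to 10 kb, 56.3% at 10 to 100 kb, 45.6% at 100 to 1000 kb and 43.1% at 1000 to 10000 kb, where it was close to the 41.9% over all. Around gained sites the gained share went from 58.1% within 1 kb over 42.3%, 33.0% and 29.1% to 25.1%. The gained share lay above the 24.1% over all in each of these bins, and least so beyond 1000 kb. The shares over all are not specific to a distance. Within 1 kb, 16.3% of the sites after a gained site and 33.9% of those after a kept site were lost. Kept sites did not show the same fading. Their kept share was 33.0% within 1 kb, 43.1% at 1 to 10 kb and 33.9% at 1000 to 10000 kb. With peaks of −log10 q of at least 10 alone, and sites classified anew from them, 45.4% of lost sites were followed by a lost site, where lost sites made up 28.4%.

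**Figure D2:**
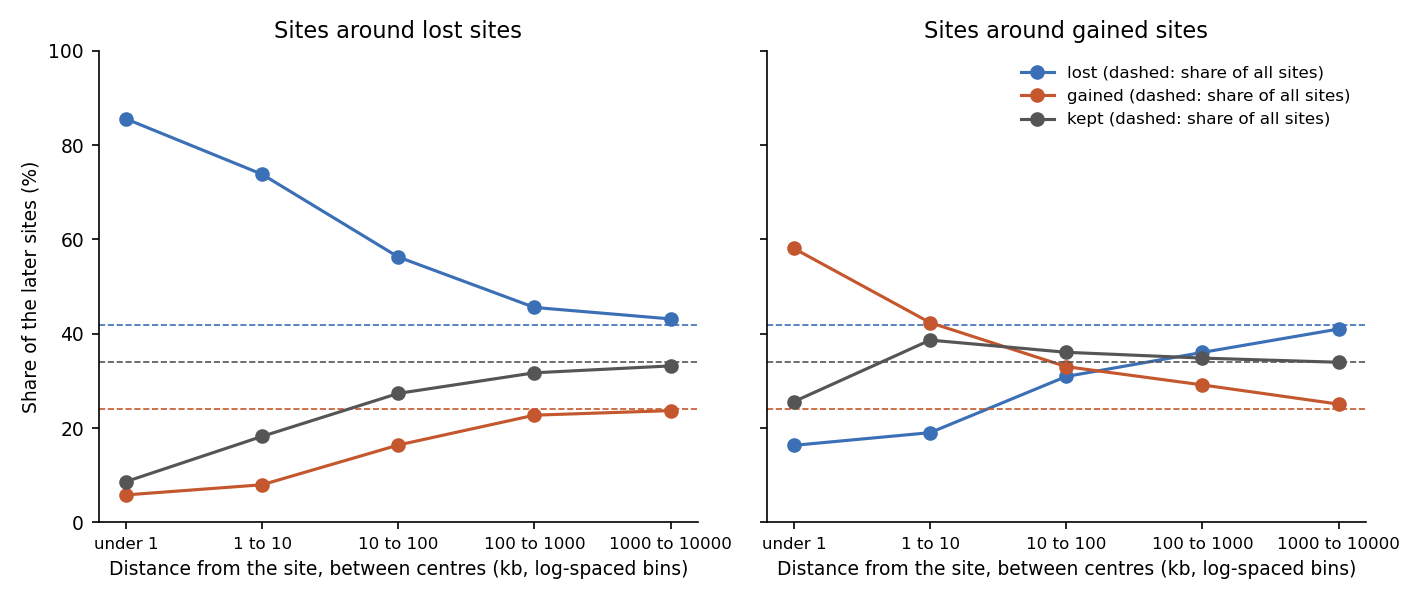
Share of lost, gained and kept sites (percent) at a given distance (kb, log-spaced bins) from a lost site, left, or a gained site, right. All shares, and those marked by dashed lines for the whole genome, are of lost, gained and kept sites only, with other sites left out. The lost curve fell from 85.6% to 43.1% and the gained curve from 58.1% to 25.1% as distance grew.

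Runs of lost sites were longer than runs of gained or kept ones. The lost sites formed 9335 unbroken runs, of which 384 held 10 sites or more, and the 1411 runs of 5 or more held 47.9% of all lost sites. The gained sites formed 8631 runs, of which 24 held 10 or more, and runs of 5 or more held 14.6% of them. The longest run was 57 sites for lost, 18 for gained and 11 for kept. Lost sites were also the most numerous class, and the run lengths were not adjusted for that.

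The longest run of lost sites lay at chr11:9233308-9436993 (hg19), where 57 lost sites spanned 204 kb. Control 1 held 75 peaks and control 2 held 68 there, against 4 in knockout 3 and 2 in knockout 5. The next longest, at chr9:33920108-34197215, held 44 lost sites, with 59 and 52 control peaks against 5 and 2. In each of these stretches control peaks of both libraries stood in dense groups with a long gap, and nearly all were missing from both knockout libraries. On chromosome 11 neither control library had a peak between 101.209 and 176.464 kb from the start of the run. On chromosome 9 control peaks were few between 126.593 and 258.925 kb. No number was skipped beside 26 lost sites of the former and 6 of the latter. The knockout libraries skipped 1 and 1 numbers in the former run and 6 and 2 in the latter.

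At chr17:57794252-57969787 there were 42 lost sites, with 61 and 52 control peaks against 2 in knockout 3 and 0 in knockout 5. At chr17:27095537-27168602 there were 37, with 53 and 41 against 1 and 0. At all lost sites of these 2 runs no peak number was skipped in either knockout library. The run at chr19:33475999-33615126 held 39 lost sites, with 59 and 46 control peaks against 4 and 2 in the knockout, and 8 of its sites had no skipped number. Only 2 and 0 numbers were skipped there in the knockout libraries, as 1 skipped number counts against every site in its gap.

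The longest gained runs held fewer sites than the longest lost runs. At chr12:11354370-11709676, 18 gained sites spanned 355 kb, with 1 and 2 peaks in the control libraries against 33 and 37 in knockout 3 and 5. The run at chr4:49281214-49327043 held 17 gained sites in 45.8 kb, with 1 and 2 against 21 and 23. Peaks of both knockout libraries far outnumbered those of the control libraries, which held between 1 and 2, but did not fill the chromosome 12 stretch. Knockout 3 had no peak there between 118.747 and 178.627 kb from the start. Of all 53 sites in that stretch 18 were gained, and of all 27 in the chromosome 4 stretch 17 were. The rest were other sites, passed over in the order.

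The next 2 gained runs held 16 sites each, at chr16:88507406-88581414 and at chr1:2381490-2430574. Control 1 and 2 held 1 and 0 peaks in the former and 2 and 2 in the latter. Knockout 3 and 5 held 45 and 23 in the former and 35 and 21 in the latter. The run at chr9:139395224-139456992 held 15 gained sites, with no control peak against 26 and 19 knockout peaks. Knockout 3 had more peaks than knockout 5 in these 3 runs, and both stood above both control libraries. At 6 gained sites of the chromosome 4 run and 6 of the chromosome 1 run no control peak number was skipped, and at none of the gained sites in the other 3 runs. The control libraries skipped 2 and 5 numbers in the chromosome 12 run, 1 and 3 in that on chromosome 16 and 3 and 3 in that on chromosome 9. These are fewer than the gained sites of each run.

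**Figure D3:**
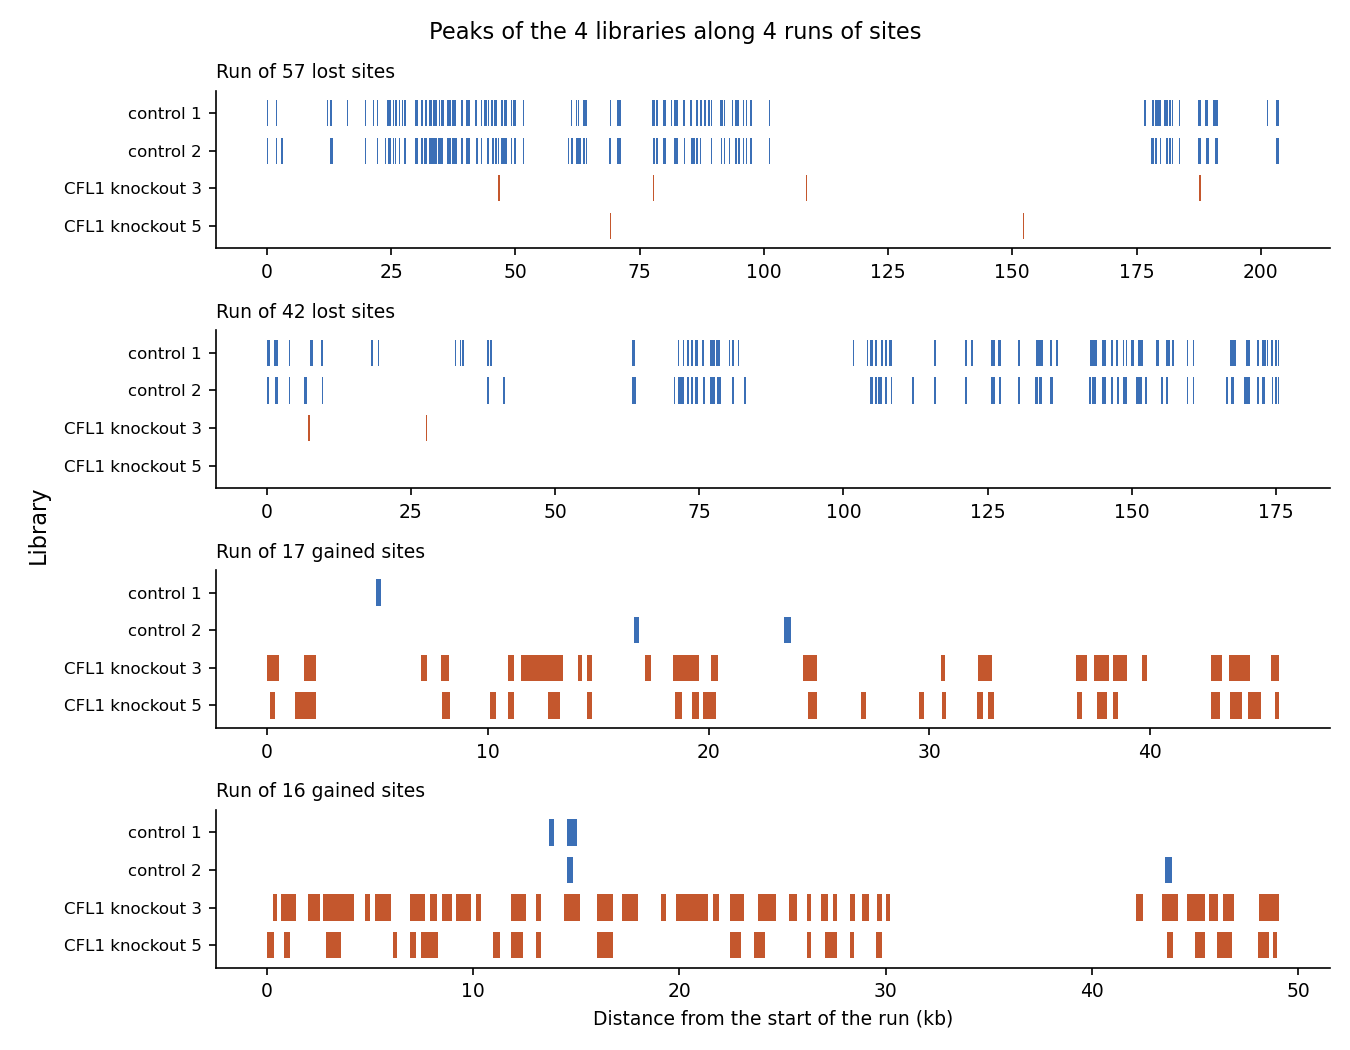
Peaks of each library (1 row each; boxes are peaks drawn to scale, with a minimum width for visibility) against distance in kb from the start of 4 runs: 57 lost sites on chromosome 11, 42 lost sites on chromosome 17, 17 gained sites on chromosome 4 and 16 gained sites on chromosome 1. Nearly all peaks were of control in the upper 2 runs and of the knockout in the lower 2, with between 0 and 4 peaks in each library of the other group.

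Within sites that both groups held, peaks also differed in width, summit and number. Of the 20541 kept sites, 14338 (69.8%) had exactly 1 peak in each of the 4 libraries, and widths and summits were compared there. Median widths at these sites were 558 bp in control 1, 580 bp in control 2, 517 bp in knockout 3 and 535 bp in knockout 5. Both knockout medians were below both control medians. The median log2 ratio of widths, knockout over control, was -0.09, a width of 0.939 times that of control. Control 2 over control 1 gave 0.02 and knockout 5 over knockout 3 gave 0.03, so the median difference between groups was small but larger than that within them.

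Behind this small median, peaks differed in width both ways. The typical size of the log2 difference, regardless of sign, was 0.11 between the control libraries, 0.17 between the knockout libraries and 0.36 to 0.43 between a control and a knockout library. Both knockout peaks were wider than both control peaks at 3948 sites (27.5%), by a median of 1.41 times. Both were narrower at 5807 sites (40.5%), to a median of 0.694 times. At the remaining 31.96% the widths of the groups overlapped. When each library's widths were divided by its median, 35.5% of sites were wider and 31.5% narrower. The excess of narrower over wider sites therefore held for widths in bp and turned around for scaled widths.

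Sites without overlap in width made up 68.0% with control against knockout, and 16.2% and 14.9% in the exact permutation of the library labels, which can set 2 libraries against 2 in 3 ways (p = 0.333, two-sided). That p is the smallest the 3 ways allow, so no exact permutation of these 4 libraries could pass 0.05.

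Both edges of a peak moved by at least 50 bp, in any direction, in 47.3% of wider sites, and 1 edge only in 45.8%. At narrower sites the shares were 44.2% and 49.5%, and where the widths of the groups overlapped they were 45.9% and 30.1%. Movement of both edges was thus about as frequent without a width call, since edges that moved the same way also count. The median shift at wider sites was -90.5 bp at the start and 85 bp at the end. At narrower sites it was 83.5 bp and -88.5 bp, a near mirror image.

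The largest changes were more than 4-fold. At chr17:48211154-48213139 the peak was 239 bp wide in control 1, 231 bp in control 2, 1986 bp in knockout 3 and 1650 bp in knockout 5. At chr19:36277154-36279680 it was 301 and 467 bp in control against 2513 and 2450 bp in the knockout, and the summits of the groups interleaved. In both, a short control peak lay inside a long knockout peak.

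The 3 other sites were wider by a like amount. At chr16:16453382-16455289 the widths were 227 and 290 bp in control against 1902 and 1657 bp. At chr22:50843415-50845260 they were 311 and 275 bp against 1843 and 1774 bp, and at chr10:46194085-46195635 they were 279 and 305 bp against 1514 and 1503 bp. At these sites the knockout libraries differed from each other by far less than from control.

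In the opposite direction, the peak at chr16:3253390-3255923 was 2176 and 2534 bp wide in control 1 and 2, and 271 and 310 bp in knockout 3 and 5. At chr3:41280484-41281784 the widths were 1286 and 1301 bp against 201 and 202 bp. At chr19:33202477-33203612 they were 1118 and 1113 bp against 213 and 205 bp. At these sites the knockout peak was a short stretch within the control peak, and the groups were far apart. No listed peak in any library was narrower than 200 bp, and the shortest knockout widths here and at the next site lie near that floor.

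At chr1:205686623-205687756 the control peaks were 1108 and 1134 bp wide and the knockout peaks 217 and 215 bp, and the nearest summits of the groups lay 675 bp apart. At chr2:236916542-236918394 the widths were 1848 and 1819 bp against 367 and 299 bp, with 229 bp between the nearest summits. Here the stretch that remained in the knockout was not the one that held the control summit.

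**Figure D4:**
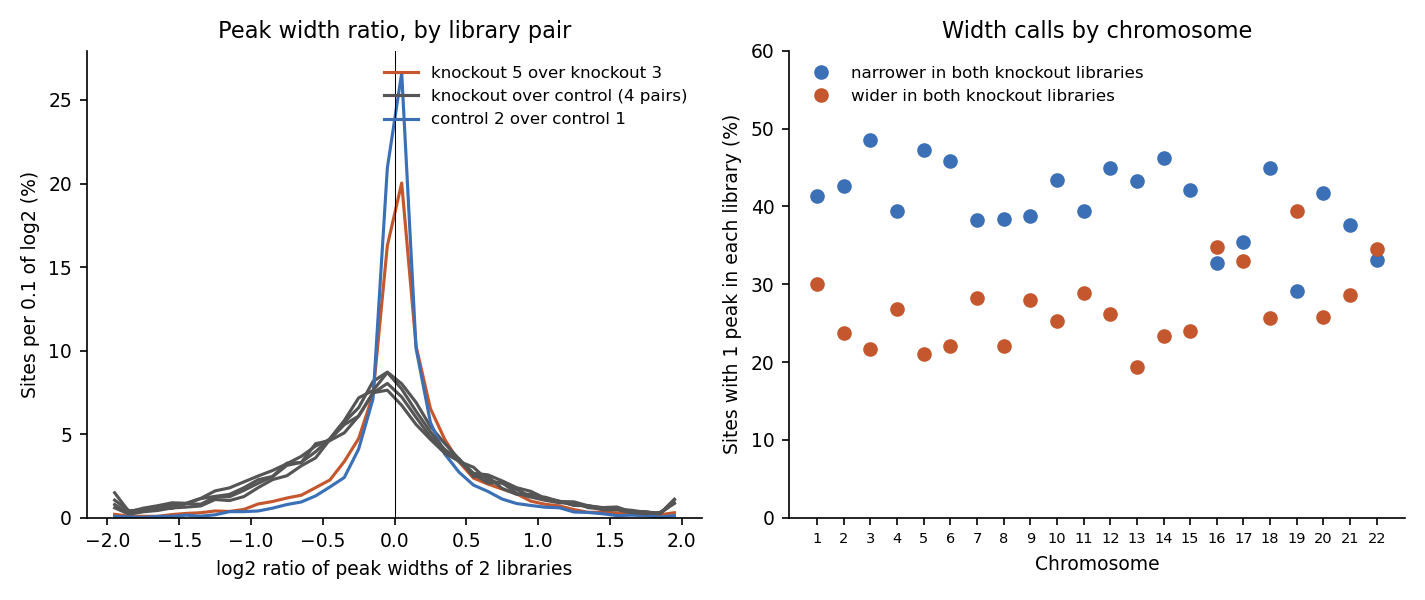
Left, distribution of the log2 ratio of peak widths between 2 libraries at the 14338 sites with 1 peak in each library (percent of sites per 0.1 of log2; the outermost points collect all larger ratios); right, percent of such sites that were narrower or wider in both knockout libraries, by chromosome. The 4 curves between groups were broader than both curves within a group, and narrower sites outnumbered wider ones on 19 of 22 chromosomes in bp (on 9 with scaled widths).

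Width calls differed by chromosome. Narrower sites outnumbered wider ones on 19 of the 22 chromosomes, most on chromosome 3 (48.6% narrower, 21.7% wider). On chromosome 19 the order was the opposite, with 39.4% wider and 29.1% narrower. Chromosome 19 peaks had median widths of 545 and 571 bp in control against 592 and 597 bp in the knockout, so the groups did not overlap there either. Chromosomes 16 (34.8% wider, 32.7% narrower) and 22 (34.5% wider, 33.1% narrower) also had more wider sites. With widths scaled by library, wider sites outnumbered narrower ones on 13 of 22.

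Widths at kept sites went with the fate of the sites around them. At the 1787 sites whose nearest classified neighbours on both sides were lost, 51.5% were narrower and 18.6% wider in the knockout, and the median widths were 586, 612, 485 and 503 bp in control 1, control 2, knockout 3 and knockout 5. At the 1159 sites between gained neighbours, 26.9% were narrower and 39.9% wider, with medians of 532, 549, 553 and 589 bp. At the 2615 sites between kept neighbours, 37.5% were narrower and 29.3% wider, near the shares over all sites.

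Relative to the median over all sites, the log2 width ratio was -0.12 between lost neighbours, 0.19 between gained neighbours and 0.03 between kept neighbours. The order did not depend on the scaling of widths: scaled, 41.5% were narrower and 26.3% wider between lost neighbours, against 21.1% and 48.1% between gained ones. Neighbouring width calls also resembled each other. Within 1 kb, a wider site was followed by a wider one in 58.4% of cases and a narrower site by a wider one in 35.4%, among sites with either call. Beyond 1000 kb the shares were 32.9% and 31.8%.

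Summits lay apart at sites where the peaks themselves overlapped. The median distance between summits was 11 bp between the control libraries and 18 bp between the knockout libraries. It was 83, 87, 92 and 96 bp for the 4 pairs of a control and a knockout library. Summits lay at least 100 bp apart at 11.8% of sites within control and 17.0% within the knockout, and at 44.9% to 48.8% between groups. The interval that both peaks covered was a median of 90.02% of their union within control, 84.7% within the knockout and 63.4% to 68.5% between groups. All 4 pairs between groups stood apart from both pairs within a group on each of these measures.

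**Figure D5:**
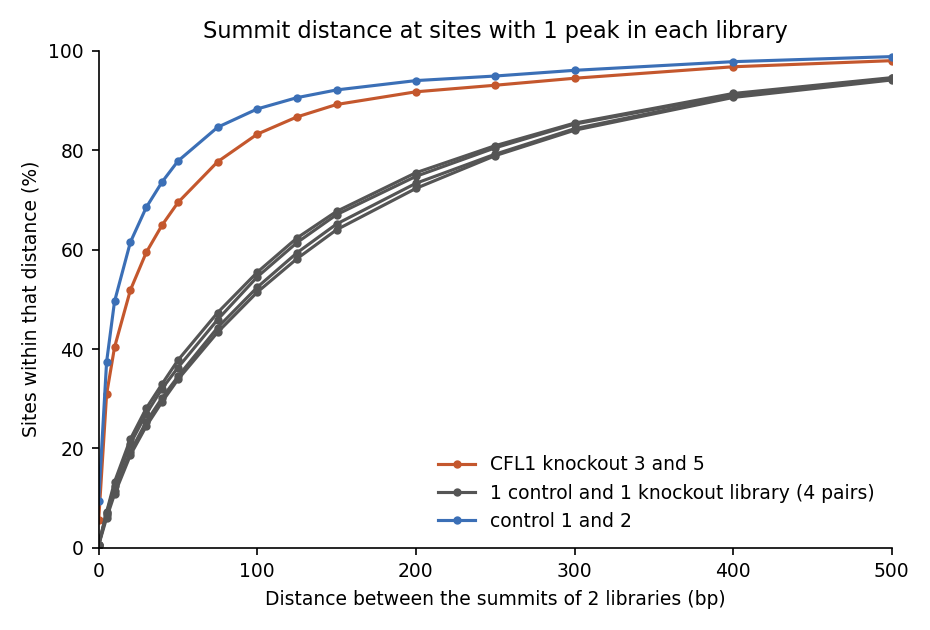
Percent of the 14338 sites with 1 peak in each library (y axis) whose summits in 2 libraries lay within the distance on the x axis (bp), 1 curve for each of the 6 library pairs. Both curves within a group rose steeply (medians of 11 and 18 bp), and the 4 curves between groups lay together and lower (medians of 83 to 96 bp).

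Summits were counted as separated where both knockout summits lay on the same side of both control summits, with at least 50 bp between the nearest summits of the groups. This held at 6376 of the 14338 sites (44.5%), and at 1.79% and 2.002% with the library labels exchanged in the other 2 ways (exact permutation p = 0.333, two-sided, the smallest possible). The median gap was 152 bp, with quartiles of 90 and 269 bp. The knockout summits lay toward higher coordinates at 3188 sites (22.2%) and toward lower ones at 3188 (22.2%), so no direction along the chromosome was favoured. The lists give no strand, so the direction along the transcript is not known. Neighbouring separated sites within 1 kb were displaced the same way in 47.9% of 192 pairs.

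By construction the peaks of both groups overlap at these sites. At 76.8% of them both knockout summits fell inside both control peaks, and at 72.6% both control summits fell inside both knockout peaks. Summits separated at about the same rate whether a peak had become wider (45.9%), narrower (45.3%) or neither (42.2%). Sites of high rank were separated at least as often as others. Ordered by their mean rank of −log10 q within each library, the lowest quintile of sites had median summit distances of 34 bp within control and 49 bp within the knockout, and the highest quintile 4 and 6 bp. Between groups the distances were 110 bp in the lowest quintile and 94 bp in the highest, and separated summits made up 39.6% and 52.1% of sites. Within groups the distance thus shrank with rank, while between groups it stayed between 79.8 and 110 bp in all 5 quintiles.

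The share of separated summits also went with width. In the narrowest quintile, with a median of 309 bp, 28.7% of summits were separated and the median distance between groups was 46.3 bp. In the widest quintile, with a median of 1128 bp, 58.1% were separated and the distance was 186 bp. Within control the distance was 12 bp in the narrowest and 8 bp in the widest quintile. Rank and width went together, with a median width of 416 bp in the lowest and 901 bp in the highest quintile by rank. The 2 orderings are therefore not separate results.

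The 6 largest summit gaps among sites with −log10 q of at least 10 in every library were all in wide peaks. At chr20:62193327-62197989 the summit lay at 62195177 in control 1 and 62195176 in control 2, and at 62197182 and 62197228 in knockout 3 and 5, a gap of 2005 bp. The peaks themselves were 3870, 3810, 4663 and 4489 bp wide. At chr11:65544864-65547539 the summits lay at 65545330 and 65545407 in control against 65547341 and 65547342 in the knockout. The libraries of each group placed the summit close together, and the groups placed it far apart in 1 broad peak.

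At chr15:75498160-75501619 the control summits lay at 75498493 and 75498496 and the knockout summits at 75500370 and 75500380. At chr19:12058930-12061548 they lay at 12059211 and 12059233 against 12061083 and 12061082. At chr3:138663699-138666205 they lay at 138663956 and 138663955 against 138665745 in both knockout libraries. The gap was 1789 to 1874 bp at these 3 sites, and the libraries of each group lay close together.

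At chr10:106072843-106075888 the gap was 1839 bp, and the control summits were less close to each other, at 106073621 and 106073799, than the knockout summits at 106075641 and 106075638. All 6 of these gaps ran toward higher coordinates, while over all separated sites both directions were equally frequent.

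Peaks were split and joined about equally often. Of the control peaks that overlapped a knockout peak, 6.41% to 7.78% overlapped 2 or more of them over the 4 library pairs. Of the knockout peaks that overlapped a control peak, 6.35% to 7.62% overlapped 2 or more. Within a group the values were lower, at 2.52% and 3.85% for the control libraries and 4.25% and 5.12% for the knockout libraries in the 2 directions. These shares rest on unlike sets of peaks. Within groups 42161 to 54600 peaks overlapped any, including the narrow ones at lost or gained sites, against 27171 to 29261 between groups. The counts that overlapped 2 or more were closer, at 1374 to 2157 within and 1816 to 2201 between groups.

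At 724 of the 20541 kept sites (3.52%) each control library had 1 peak and each knockout library 2 or more, which is called split. At 714 sites (3.48%) it was the reverse, which is called joined. Split and joined sites together numbered 1438, against 271 and 282 with the library labels exchanged (exact permutation p = 0.333, two-sided, the smallest possible). These counts depend on the libraries asked to agree: there were 1282 split sites without knockout 3, 1376 without knockout 5, and 1127 and 1203 joined sites without control 1 and control 2. With peaks of −log10 q of at least 10 alone there were 408 split and 404 joined sites.

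A split control peak had a median width of 1293 bp. Its knockout pieces were parted by a median of 249 bp and their widths summed to a median of 0.829 times the width of the single peak. Joined sites were alike in the other direction, with a single knockout peak of 1500.5 bp, gaps of 233 bp between the control pieces, and a summed width of 0.853 times the single peak. Most had 2 pieces as the smaller count of the libraries, 690 of the split and 661 of the joined sites.

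At chr5:64782428-64786709 each control library had 1 peak, of 4241 and 4282 bp. Knockout 3 had 4 peaks there, of 564, 538, 773 and 453 bp, and knockout 5 had 3, of 568, 2142 and 662 bp. The first piece matched in both knockout libraries, while a piece of 2142 bp in knockout 5 covered the middle pieces of knockout 3.

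At chr7:99631934-99635816 the single control peaks of 3882 and 3809 bp faced 4 and 3 knockout peaks, and at chr1:2121148-2124566 single peaks of 3086 and 3419 bp faced 3 and 3. At chr19:4651831-4655510 the single control peaks were 3680 and 3650 bp wide. Knockout 3 had peaks of 1389, 520 and 712 bp and knockout 5 of 1257, 640 and 811 bp, so both libraries broke the peak into 3 pieces of like size.

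The reverse was largest at chr16:89345970-89352204. Control 1 had 7 peaks there, 277 to 1172 bp wide, and control 2 had 6, 235 to 1176 bp wide. Knockout 3 and 5 each had a single peak, of 6141 and 6198 bp, that covered nearly the whole stretch.

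The other named joined sites had 3 peaks in each control library. At chr16:704608-711387 these were 1982, 2050 and 318 bp wide in control 1 and 2017, 2051 and 361 bp in control 2, against single knockout peaks of 6761 and 6773 bp. At chr17:17696058-17702017 the knockout peaks were 5959 and 5824 bp wide, and at chr19:46268070-46271786 they were 3554 and 3618 bp wide. At these 3 sites the number of peaks was the same in both libraries of each group.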

How the data were processed

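Peak lists of 4 m6A libraries were compared, 2 of control and 2 of CFL1 knockout PANC-1 cells, with 8 samples (antibody and input) behind them. Samples were grouped by title, since the treatment label of control antibody and input samples is the same, none. The other 24 samples and the third list were not analysed here. Reads were aligned with STAR to hg19 and peaks called with MACS2, and bedtools was used, per the submitters' processing notes, whose versions and settings the sources used here do not give. Each deposited line has a peak's interval and summit, the −log10 p and −log10 q of the authors' peak caller, and its fold enrichment, a ratio. Fold was read but not compared. Read depth behind the calls is unknown.

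Libraries were told apart by the peak names. The knockout libraries are numbered 3 and 5, which match no replicate number in the labels. Sites join peaks overlapping by at least 1 bp, widths and summits were compared at sites with 1 peak per library, and a summit is the start plus its offset. Coordinates are 1-based hg19. Shares have exact (Clopper-Pearson) 95% intervals. Library labels were permuted exactly, which gives 3 splits. Python 3.11.15, numpy 2.4.6, pandas 2.3.3, scipy 1.17.1 and matplotlib 3.10.9 were used, and the scripts were tested on simulated lists.

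Named sites are, among 8726 sites with −log10 q of at least 10 in all 4 peaks, the 5 most widened, the 5 most narrowed and the 6 with the largest summit gap, then the 4 split and 4 joined sites with most pieces and the 5 longest runs of lost and of gained sites. No site was paired with a gene, and no sequence is shown, because a genome or annotation of hg19 was not used here. The members, site classes, tests and naming rule were chosen with earlier results of these data known. Alternatives were a 50% overlap, joining of peaks within 100 bp, −log10 q of at least 5 or 10, peaks under 2000 bp, other distances between neighbours, a summit gap of 100 bp, summed widths and each library left out. Scaled widths, sites beside which no peak number is skipped, and the results on neighbours of kept sites and on counts of split and joined sites were added after seeing the data.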

Additional observations from a re-analysis of the deposited data

How the results depend on the processing

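Of 149 alternative values of 15 results, most are shares or counts, which cannot change sign, and the log2 width ratio stayed below 0. The order of 2 pairs of shares did turn: scaled widths gave more wider than narrower sites, and at −log10 q of at least 10 the gained share (36.8%) lay above the lost share (35.6%). With a −log10 q cut, peaks below it counted as absent, and the cut fell at a different place in each list. In 74 the value moved by less than the spread between library pairs (counts: less than 1.5 times), and in 75 by more. With an overlap of 50% of the shorter peak, 51.3% of control sites were lost, 4.94% of control peaks were split and 5.04% of knockout peaks joined control peaks. With −log10 q of at least 5, 42.8% were lost, 6.42% of knockout peaks joined control peaks, 55.4% of lost sites were followed by a lost site, 54.4% of sites between lost neighbours were narrower and 41.8% between gained ones wider. With −log10 q of at least 10 these were 35.6%, 5.83%, 45.4%, 54.2% and 41.7%, 43.4% of sites were narrower, 47.9% had separated summits, 6.32% of control peaks were split, and 408 sites were split and 404 joined. Lost sites made up 34.5% of lost, gained and kept sites with the cut at 5 and 28.4% with the cut at 10. Without peaks of 2000 bp or more, 51.8% were lost, 6.09% split, 5.33% joined, and 38.4% between gained neighbours wider. A summit gap of 100 bp left 31.4% separated. With the next site at least 10 kb away, 51.5% of lost and 37.4% of gained sites were followed by their own kind. Scaled widths gave 35.5% wider and 31.5% narrower, 41.5% narrower between lost and 48.1% wider between gained neighbours. With no skipped peak number beside the site, 16.0% were lost, 11.6% gained, and 59.98% of lost and 30.4% of gained sites were followed by their own kind. That choice keeps or drops all sites of a gap together and leaves kept sites in place, so its last 2 values do not bear on the runs. Joining peaks within 100 bp changed nothing, as peaks of a library were never that close. The alternative on peaks sharing an interval could not be run, since no library repeats one.

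With each library left out in turn, which asks fewer libraries to agree, lost sites ran from 53.9% to 60.7%, gained from 41.5% to 57.9%, wider from 34.6% to 36.9%, narrower from 44.1% to 50.7% and separated summits from 52.2% to 57.9%. The log2 width ratio ran from -0.11 to -0.051 and the summit distance from 87.5 to 97.5 bp. Control peaks split ran from 6.75% to 7.52%, knockout peaks joining from 6.65% to 7.36%, split sites from 875 to 1376 and joined sites from 944 to 1203. Lost followed by lost ran from 55.3% without knockout 5 to 70.3% without control 2. Lost sites made up 31.6% and 52.8% of lost, gained and kept sites there. Gained followed by gained ran from 36.2% without control 1 to 59.0% without knockout 5, where gained sites made up 19.4% and 43.2%. These ranges thus went with the share of the class. Narrower between lost neighbours ran from 55.5% to 62.6% and wider between gained ones from 45.1% to 50.9%. The named sites kept their direction in all 136 values, and 8 further pairs of site and alternative left no site with 1 peak in each library. That direction was fixed by the choice of these sites as extremes. Leaving out a library can only keep or raise such a value, and the filters leave the same peaks, so it is not a check. Except where given, the cause was not tested. No paired analysis was possible because control libraries are numbered 1 and 2 and knockout libraries 3 and 5, so no number is shared. Read depth is unknown, so a site absent from a list may lie just under a threshold.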
